A study of Homo sapiens with 16 samples.

Results

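Nucleotide synthesis enzymes were followed across 16 RNA-seq libraries of SH-SY5Y cells, an established human neuroblastoma line. The set was chosen by gene symbol and held 9 genes, RRM1, RRM2, TYMS, TK1, DUT, DCK, DTYMK, DCTPP1 and SAMHD1, of the 26410 genes in each of the 2 deposited tables. All 9 were found in both tables. The cells fell into 4 groups of 4 libraries: scrambled control (Scr) untreated, TRPM2 KO untreated, Scr after doxorubicin and TRPM2 KO after doxorubicin. Doxorubicin, an anthracycline that traps topoisomerase II on DNA, was given for 24 h at 0.3 µM according to the sample labels, whereas the description of the whole data set gives 3 µM. Each group consisted of 2 single-cell clones (Scr13 and Scr16, or KO11 and KO28) with 2 replicates per clone. All clones had been transfected with a Cas9 vector and a donor vector carrying GFP and puromycin resistance and had been selected with puromycin. The KO clones received a guide RNA against TRPM2, a calcium-permeable channel, and the Scr clones a scrambled one. With 2 clones per genotype, a property of a clone and an effect of TRPM2 deletion cannot be told apart, and p-values measured the spread between these libraries.

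A library held between 10481177 (Scr16 after doxorubicin, replicate 1) and 25086085 reads on genes. Levels are given as normalized CPM, read counts scaled to an effective library size, and 3 reads, taken as the detection floor, corresponded to between 0.118 and 0.285 normalized CPM. The least abundant member, SAMHD1, lay far above that floor in every library, as did the other 8.

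Deoxyribonucleoside triphosphates, the building blocks of DNA, are made by a de novo route and a salvage route. Ribonucleotide reductase reduces ribonucleotides to deoxyribonucleotides with a large subunit, RRM1, and a small subunit, which is RRM2 in dividing cells or the p53-inducible RRM2B. Thymidylate is made from dUMP by TYMS or from thymidine by TK1, and DTYMK phosphorylates it further. DCK phosphorylates deoxycytidine and other deoxynucleosides, DUT hydrolyses dUTP and so keeps uracil out of DNA, DCTPP1 clears modified deoxycytidine triphosphates, and SAMHD1 breaks deoxyribonucleoside triphosphates down. Transcription of several of these genes rises at the entry into S phase under E2F factors.

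The stretches just before an annotated start site of 5 members are shown because these members differed in their response to doxorubicin while their promoters shared short motifs. They are the 150 bases before the start in RefSeq on GRCh38.p14, written 5′ to 3′ on the gene's strand: RRM2 at chr2:10122589-10122738 (plus strand), TK1 at chr17:78187053-78187202 (minus strand), DUT at chr15:48332047-48332196 (plus strand), TYMS at chr18:657503-657652 (plus strand) and SAMHD1 at chr20:36951709-36951858 (minus strand). RRM2 and TK1 each have another annotated start upstream of the one used, and DUT has several. Capitals mark the motifs.
RRM2: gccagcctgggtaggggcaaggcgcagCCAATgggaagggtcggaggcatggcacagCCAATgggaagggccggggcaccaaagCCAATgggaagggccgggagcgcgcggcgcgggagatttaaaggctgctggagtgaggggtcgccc
TK1: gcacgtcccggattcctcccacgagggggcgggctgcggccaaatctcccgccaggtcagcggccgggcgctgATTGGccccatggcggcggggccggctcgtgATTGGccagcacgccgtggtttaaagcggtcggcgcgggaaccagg
DUT: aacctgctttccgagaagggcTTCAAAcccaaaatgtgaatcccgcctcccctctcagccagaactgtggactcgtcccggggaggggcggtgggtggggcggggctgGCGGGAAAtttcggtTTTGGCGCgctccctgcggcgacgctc
TYMS: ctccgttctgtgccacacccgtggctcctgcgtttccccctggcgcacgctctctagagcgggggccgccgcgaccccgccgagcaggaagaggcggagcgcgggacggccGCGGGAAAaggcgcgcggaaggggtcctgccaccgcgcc
SAMHD1: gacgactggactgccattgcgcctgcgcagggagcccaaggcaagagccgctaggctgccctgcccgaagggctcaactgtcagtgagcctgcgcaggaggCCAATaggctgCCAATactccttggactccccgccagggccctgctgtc

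The words searched on both strands were TTTCCCGC, TTTCGCGC, TTTGCCGC and TTTGGCGC, which are forms of the E2F site, CCAAT, the NF-Y site, and TTTGAA, the core of the cell cycle homology region. Across 35116 windows of 300 bases around annotated starts, an E2F word was present in 3.31%, CCAAT in 34.6% and TTTGAA in 15.2%. Counted by gene, with any window of a gene taken, the shares of 27305 genes were 3.99%, 39.7% and 18.2%. Of the 9 members, 3 held an E2F word in a window (TYMS, DUT and DCK), 5 held CCAAT (RRM1, RRM2, TK1, DTYMK and SAMHD1) and 2 held TTTGAA (RRM1 and DUT). In the stretches above, RRM2 had 3 copies of CCAAT and TK1 and SAMHD1 had 2 each, TYMS had 1 E2F word, and DUT had 2 E2F words and 1 TTTGAA on the other strand. A match describes the letters in the window and not the binding of a factor.

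Most defining markers of the adrenergic neuroblastoma state were abundant in all libraries. Their summed level ranged from 4691 to 5807 normalized CPM over 10 genes, the most abundant being DBH or HAND2. TH, the rate-limiting enzyme of catecholamine synthesis, was at 0 to 18 reads (at most 1.134 normalized CPM), and CHGA was at 0.3564 to 3.408 normalized CPM in 15 of the libraries and at 26.44 in KO11 untreated replicate 2. Mesenchymal markers were also detected: over 9 genes their sum was 843.2 to 1208 normalized CPM in the 8 libraries labelled TRPM2 KO and 427.2 to 739.6 in 7 of the 8 Scr libraries. The remaining library, Scr13 untreated replicate 1, had a sum of 893.7, with VIM at 302.2 normalized CPM compared with 87.28 in replicate 2 of the same clone. The gene lists were also tested without it, a choice made after seeing the data. Calls lost outside the adrenergic list are named with their values below. For the adrenergic list only counts are given. Between untreated genotypes they went from 2 higher and 1 lower to 1 higher and 1 lower. For doxorubicin in Scr cells they went from 1 higher and 1 lower to 2 higher and 0 lower. Of the mesenchymal genes tested, 5 of 9 were higher and TWIST1 was lower in the KO libraries untreated, and 6 of 8 were higher and TWIST1 lower after doxorubicin. VIM was the most abundant of them in the KO libraries and TWIST1 in the Scr libraries other than Scr13 untreated replicate 1. Their part in the results below was not tested.

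TRPM2 reads went against the label in untreated cells. Untreated libraries labelled TRPM2 KO held between 21 and 37 TRPM2 reads, and the untreated Scr libraries 0 to 3. After doxorubicin the KO libraries held 11 to 29 reads and the Scr libraries 1, 1, 14 and 6, which overlapped, and the test was not passed (log2 fold change 0.69, adjusted p = 0.249). Untreated, TRPM2 was higher in the libraries labelled KO, with 1.938 normalized CPM on average compared with 0.0583 (adjusted p = 0.00154). Only the start of the coding sequence was deleted according to the study's methods, so reads from the rest of the gene do not check the deletion. Directions between genotypes below therefore refer to the libraries labelled TRPM2 KO.

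The members differed widely in level. Per kilobase of annotated exon, in untreated Scr cells, TYMS was the most abundant at 91.7 ± 5.53 normalized CPM per kilobase (SD, n = 4). RRM2 (53.5 ± 3.18), TK1 (51.2 ± 3.37), RRM1 (49.9 ± 2.7) and DUT (46.6 ± 2.42) followed on the same scale, and each of these overlapped its neighbour in the order. DCTPP1 (32.8 ± 2.72), DTYMK (22.2 ± 0.633) and DCK (15.7 ± 1.46) were lower, without overlap between neighbours. SAMHD1 was the least abundant member at 2.77 ± 0.381 normalized CPM per kilobase. After doxorubicin TYMS was still first and SAMHD1 last in both genotypes.

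**Figure D1:**
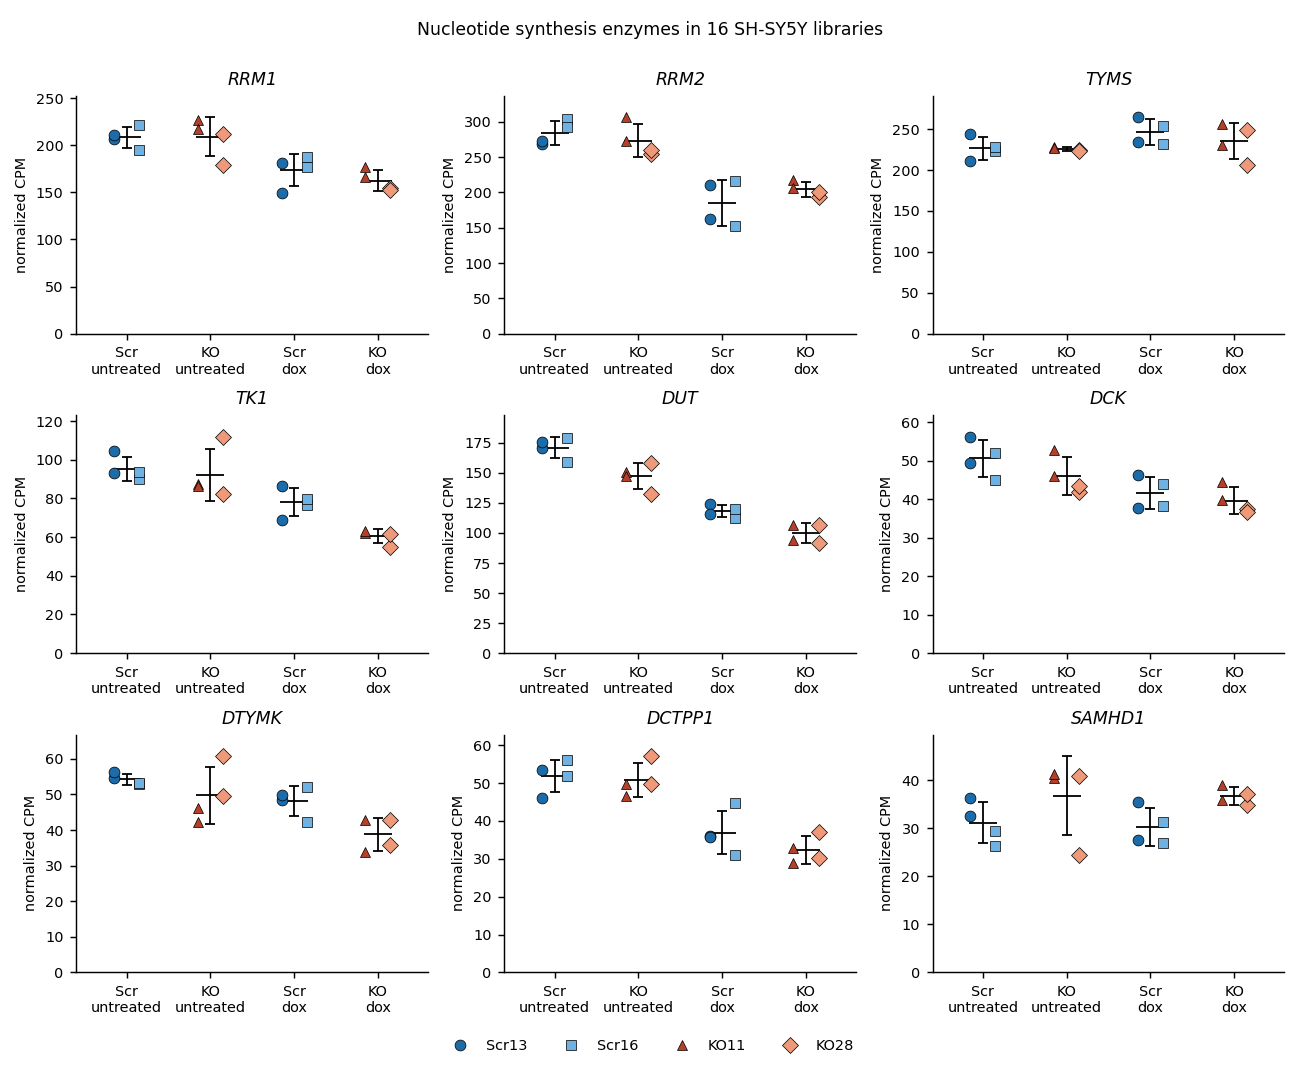
Normalized CPM of the 9 enzymes in each of the 16 libraries (y axis, from 0), by group (x axis; Scr, scrambled control; KO, libraries labelled TRPM2 KO; dox, doxorubicin). Symbols stand for single libraries by clone and bars for the group mean ± SD (n = 4). RRM2 fell from 284.6 to 185.6 in Scr cells and from 273.3 to 204.3 in KO cells, whereas TYMS was between 206.3 and 264.2 in all libraries.

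The first question was how doxorubicin changed these genes in each genotype. In Scr cells 5 of the 9 members fell (RRM1, RRM2, TK1, DUT and DCTPP1) and none rose, and in KO cells the same 5 and DTYMK fell and none rose. Of all genes tested, 4.92% fell and 6.45% rose in Scr cells (14378 genes), and 7.24% fell and 10.3% rose in KO cells (14513 genes). The median log2 fold change of the members was -0.28 in Scr and -0.35 in KO cells, compared with -0.01 and 0.02 for all genes. The libraries of doxorubicin and untreated cells did not overlap for 6 members in Scr (8.53% of all genes fell without overlap) and for 5 in KO cells (8.52%). The members that fell and those that did not are described below by their place in the pathway. In bulk RNA, fewer cells in S phase and less RNA per cell cannot be told apart.

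RRM2, the small subunit of ribonucleotide reductase (chr2:10120698-10131419 in GENCODE 29 on GRCh38, plus strand), fell in all 4 clones. In Scr cells it had 268.8, 272.4, 304.4 and 292.8 normalized CPM untreated (Scr13 replicates 1 and 2, then Scr16) and 163, 210.5, 152.6 and 216.2 after doxorubicin. In KO cells it had 306, 272.9, 254.1 and 260 untreated (KO11 replicates 1 and 2, then KO28) and 217, 206.9, 193.1 and 200.2 after doxorubicin. No treated library reached the lowest untreated one in either genotype, and within the treated Scr cells replicate 1 of both clones was well below replicate 2. RRM2 was 1.55-fold lower in Scr (log2 fold change -0.63, SE 0.0998, adjusted p = 0.000398) and 1.33-fold lower in KO cells (-0.41, SE 0.0766, adjusted p = 0.000402). Its call held in all 19 alternatives in each genotype. RRM2 has 3 annotated pseudogenes and shares exon positions on the same strand with AC007240.1. The authors' counting could have lost reads to these.

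RRM1, the large subunit (chr11:4094707-4138876, plus strand), changed less. It had 206.6, 211, 222 and 194.7 normalized CPM in untreated Scr libraries and 149.5, 181.5, 177.1 and 187.5 after doxorubicin. KO libraries had 226.7, 217.3, 212.4 and 179.5 untreated and 166.4, 176.6, 154.7 and 152.5 after doxorubicin. Again the treated and untreated libraries did not overlap. RRM1 was 1.2-fold lower in Scr (-0.27, SE 0.0781, adjusted p = 0.0328) and 1.28-fold lower in KO cells (-0.35, SE 0.0828, adjusted p = 0.00357).

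RRM2B, the p53-inducible small subunit on chromosome 8, moved in the opposite direction. In Scr cells it had 27.24, 24.07, 28.05 and 24.65 normalized CPM untreated and 77.99, 63.47, 53.42 and 49.4 after doxorubicin. The KO libraries held 39.73, 32.53, 29.51 and 22.32 untreated and 132.8, 127.3, 116.7 and 101.8 after doxorubicin, so that every treated KO library was above every treated Scr library. RRM2B rose by a log2 fold change of 1.18 in Scr (SE 0.128, adjusted p = 8.41e-06) and 1.94 in KO cells (SE 0.128, adjusted p = 6.21e-11). The interaction of genotype and treatment was 0.76 (SE 0.194) and did not pass the threshold (adjusted p = 0.207).

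The balance of the small subunits shifted accordingly. Per kilobase of exon, the ratio of RRM2 to RRM2B was 10.3, 11.8, 11.3 and 12.4 in untreated Scr libraries and 8.03, 8.75, 8.98 and 12.1 in untreated KO libraries, which overlapped. After doxorubicin it was 2.18, 3.46, 2.98 and 4.56 in Scr and 1.7, 1.69, 1.72 and 2.05 in KO libraries, which did not overlap. RRM2 thus remained the more abundant small subunit transcript in every library. The ratio is a description and was not tested, and the limits on RRM2 reads given above apply to it.

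**Figure D2:**
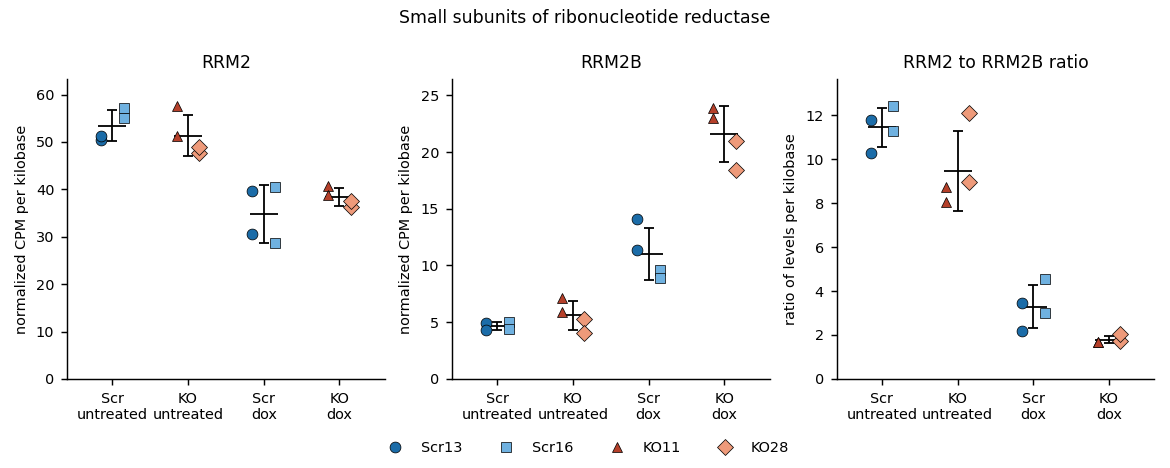
Levels of RRM2 and RRM2B in normalized CPM per kilobase of exon (left and middle, y axes from 0) and their ratio (right) in each library by group; symbols stand for single libraries by clone and bars for the group mean ± SD (n = 4). The ratio lay between 8.03 and 12.4 in untreated libraries and between 1.69 and 4.56 after doxorubicin.

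Of the enzymes that supply thymidylate, the salvage kinase fell and the de novo enzyme did not change by the test. TK1 (chr17:78174075-78187233, minus strand), which phosphorylates thymidine, had 93.17, 104.3, 89.85 and 93.77 normalized CPM in untreated Scr libraries and 69.08, 86.62, 76.52 and 79.72 after doxorubicin. In KO cells its values were 87.66, 86.38, 82.42 and 111.9 untreated and 62.07, 62.92, 55.07 and 61.64 after doxorubicin. Treated libraries were below the untreated ones of the same genotype, and the treated KO libraries were the lowest of all. TK1 was 1.22-fold lower in Scr (-0.29, SE 0.0859, adjusted p = 0.0347) and 1.5-fold lower in KO cells (-0.59, SE 0.0969, adjusted p = 0.000104).

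TYMS (chr18:657604-673578, plus strand), which methylates dUMP, had 210.7, 243.8, 223.5 and 227.9 normalized CPM in untreated Scr libraries and 233.8, 264.2, 231.6 and 254.3 after doxorubicin. The corresponding KO libraries had 228.3, 226.8, 224.2 and 223.3 untreated and 230.3, 255.7, 206.3 and 249.1 after doxorubicin. The groups overlapped in both genotypes, although the mean of the clone was higher after doxorubicin in 4 of 4 clones. The log2 fold change was 0.12 in Scr (95% interval -0.03 to 0.26, adjusted p = 0.331) and 0.06 in KO cells (-0.10 to 0.22, adjusted p = 0.672), so that neither interval reached the fall of RRM1. TYMS carries the E2F word printed above, as DUT does. It has 2 annotated pseudogenes, to which reads could have been lost. Its exons overlap those of ENOSF1 and TYMSOS on the opposite strand, which had means of 7.04 and 4.18 normalized CPM and did not pass the test in any of the 4 comparisons.

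DTYMK (chr2:241675742-241686991, minus strand), which turns dTMP into dTDP, was between 52.84 and 56.31 normalized CPM in untreated Scr libraries and between 42.2 and 52.13 after doxorubicin. In KO libraries it ranged from 42.16 to 60.76 untreated and from 33.78 to 42.87 after doxorubicin. The log2 fold change was -0.18 in Scr (SE 0.093, adjusted p = 0.246) and -0.34 in KO cells (SE 0.118, adjusted p = 0.0452), and the KO libraries overlapped although the test was passed. The call in KO cells held in 11 of 19 alternatives. It was lost without a filter (adjusted p = 0.134), on clone means (0.0917), and without clone KO11 (0.0674) or KO28 (0.329).

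Both enzymes that remove unwanted pyrimidine nucleotides fell. DUT (chr15:48331011-48343373, plus strand) had 170.8, 175.8, 158.9 and 179.3 normalized CPM in untreated Scr libraries and 123.8, 116.2, 112.6 and 119.9 after doxorubicin. KO cells had 150.4, 147.3, 132.7 and 158.7 untreated and 94.44, 106.8, 91.82 and 107 after doxorubicin. DUT showed the narrowest range of responses among the members, with log2 differences of clone means of -0.56, -0.54, -0.52 and -0.55 in KO11, KO28, Scr13 and Scr16. It was 1.45-fold lower in Scr (-0.53, SE 0.0692, adjusted p = 5.88e-05) and 1.47-fold lower in KO cells (-0.55, SE 0.083, adjusted p = 3.44e-05), in all 19 alternatives of each genotype. DUT has 8 annotated pseudogenes, to which the authors' counting could have lost reads, and the antisense gene DUT-AS1 overlaps its exons with a mean of 2.43 normalized CPM and was lower after doxorubicin in KO cells (-0.80, SE 0.249, adjusted p = 0.0266).

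DCTPP1 (chr16:30423619-30430075, minus strand) had 46.02, 53.54, 51.92 and 56.17 normalized CPM in untreated Scr libraries and 35.93, 35.77, 30.99 and 44.66 after doxorubicin. In KO cells levels were 49.81, 46.5, 57.13 and 49.82 untreated and 28.99, 32.75, 30.15 and 37.19 after doxorubicin. It was 1.41-fold lower in Scr (-0.50, SE 0.114, adjusted p = 0.00844) and 1.56-fold lower in KO cells (-0.64, SE 0.11, adjusted p = 0.00017), without overlap. ZNF771, which overlaps it on the opposite strand at a mean of 11.9 normalized CPM, did not pass the test in any of the 4 comparisons.

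SAMHD1 (chr20:36889773-36951901, minus strand), which breaks deoxyribonucleoside triphosphates down, had 36.29, 32.53, 29.52 and 26.24 normalized CPM in untreated Scr libraries and 27.56, 35.46, 26.9 and 31.23 after doxorubicin. Libraries labelled KO had 40.55, 41.2, 40.91 and 24.44 untreated and 35.77, 38.99, 34.73 and 37.07 after doxorubicin. The groups overlapped in both genotypes, and the clone means were lower in 2 clones and higher in the other 2. The log2 fold change was -0.04 in Scr (95% interval -0.31 to 0.23, adjusted p = 0.89) and 0.03 in KO cells (-0.26 to 0.31, adjusted p = 0.928). DCK (chr4:70992538-71030914, plus strand), the salvage kinase for deoxycytidine, ranged from 44.98 to 56.25 normalized CPM untreated and 37.85 to 46.21 treated in Scr libraries, and from 41.78 to 52.9 and 36.65 to 44.4 in KO libraries. Its log2 fold change was -0.28 in Scr (95% interval -0.50 to -0.07, adjusted p = 0.0849) and -0.21 in KO cells (-0.43 to 0.01, adjusted p = 0.201). DCK shares exon positions on the same strand with MOB1B, which had a mean of 70.5 normalized CPM, so that its reads may have been split.

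In Scr cells the calls of RRM1 and TK1 depended on single libraries, whereas those of RRM2, DUT and DCTPP1 held in all 8 fits without 1 library. Without Scr13 untreated replicate 1, the library with high mesenchymal markers, 3 members fell (RRM2, DUT and DCTPP1), and RRM1 (adjusted p = 0.0671) and TK1 (0.0677) no longer passed. Of all genes tested, 3% fell in that fit, compared with 4.92% with every library. TK1 passed in 2 of the 8 fits without 1 library and in 10 of 19 alternatives. Among those 8 fits its adjusted p was highest without Scr13 untreated replicate 2 (0.12) and Scr13 doxorubicin replicate 1 (0.106). It also missed the threshold without Scr16 untreated replicate 2 (0.072) or Scr16 doxorubicin replicate 1 (0.0541). The count of members was also 3 without Scr13 untreated replicate 2, Scr13 doxorubicin replicate 1 or Scr16 untreated replicate 1, and it was 2 without either clone. Calls over all genes also fell without either clone, as given under the processing below. In KO cells between 5 and 6 members fell whichever library was left out, DTYMK being the one lost, and 4 without clone KO11.

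**Figure D3:**
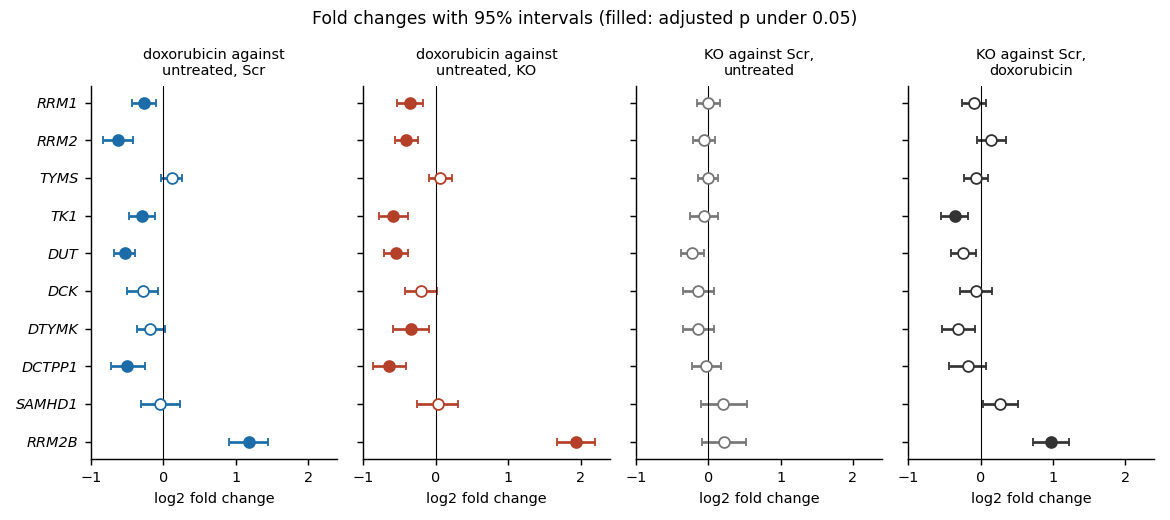
Log2 fold change (x axis) with its 95% interval for the 9 enzymes and RRM2B in 4 comparisons; filled points passed an adjusted p of 0.05 in limma. After doxorubicin 5 members fell in Scr cells and 6 in KO cells, and the only member that differed between genotypes was TK1 after doxorubicin, at -0.36.

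The second question was whether the libraries labelled TRPM2 KO differed from Scr. Untreated, 0 of 9 members passed the test in limma, and the count was also 0 in edgeR and DESeq2. The lowest unadjusted p of a member in limma was that of DUT (0.00787). Of 14364 genes, 2.30% were higher and 2.54% lower in KO. DUT had 147.3 ± 10.8 normalized CPM in KO and 171.2 ± 8.9 in Scr cells (SD, n = 4; log2 fold change -0.22, SE 0.0735, adjusted p = 0.116). The DUT libraries just failed to overlap, the highest KO value being 158.7 and the lowest Scr value 158.9 normalized CPM. An exact two-sided permutation test of DUT therefore had to give p = 0.0286, the smallest that 4 against 4 libraries allow. In the other 8 members this exact p was at least 0.229. The exact test was not adjusted for the number of genes and treats libraries of 1 clone as independent. It therefore cannot decide whether DUT differed between the genotypes. The 95% intervals of the other 8 members included 0, the narrowest being that of TYMS (-0.14 to 0.13).

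After doxorubicin 1 of 9 members was lower in KO and none was higher, compared with 4.17% of 14572 genes lower and 4.52% higher. The count was 1 in edgeR and 2 in DESeq2, for which the shares of all genes are not given here. In limma the lowest unadjusted p-values were those of TK1 (0.000735), DUT (0.00656), DTYMK (0.0109) and SAMHD1 (0.0289). The member called in limma was TK1, with 60.42 ± 3.61 normalized CPM in KO and 77.98 ± 7.28 in Scr cells (SD, n = 4), which made it 1.28-fold lower (-0.36, SE 0.0913, adjusted p = 0.0134). TK1 and DUT were the members whose libraries did not overlap (6.42% of all genes were lower without overlap). DUT had 100 ± 8.01 normalized CPM in KO and 118.1 ± 4.82 in Scr cells (-0.24, SE 0.0799, adjusted p = 0.0671). DTYMK had a difference of -0.31 (SE 0.11, adjusted p = 0.0945) and passed without Scr16 doxorubicin replicate 1 (-0.37, adjusted p = 0.0351). RRM2 was at 0.15 on the log2 scale (95% interval -0.05 to 0.35) and SAMHD1 at 0.27 (0.03 to 0.52, adjusted p = 0.179), the only members with positive values. RRM2B was 0.97 higher on the log2 scale in KO cells (SE 0.117, adjusted p = 6.23e-06). The call of TK1 was lost without Scr13 doxorubicin replicate 2 (adjusted p = 0.0585), without KO28 doxorubicin replicate 1 (0.0559) and without clone KO11, KO28 or Scr16.

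The change of the doxorubicin response with genotype was tested as an interaction. None of the 9 members passed in limma, edgeR or DESeq2. The lowest unadjusted p of a member in limma was that of TK1 (0.0316), whose fall was larger in KO cells (interaction -0.30 on the log2 scale, 95% interval -0.57 to -0.03, adjusted p = 0.62). RRM2 had an interaction of 0.22 (-0.05 to 0.49, adjusted p = 0.751) and DUT of -0.02 (-0.24 to 0.20, adjusted p = 0.989). Of 15325 genes, 0.0131% had a higher and 0.00653% a lower response in KO cells.

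Genes that mark S phase moved with the members. Of 12 replication genes, 10 fell in Scr and 11 in KO cells after doxorubicin, with medians of -0.47 and -0.60, below those of the members. The helicase subunits MCM5 (-0.77) and MCM6 (-0.71) and the helicase component CDC45 (-0.67) fell most in Scr, and MCM6 (-1.02), MCM5 (-0.93) and GINS2 (-0.81) in KO cells. The summed level of the list was 2669 to 2919 normalized CPM in untreated and 1859 to 2289 in treated Scr libraries, and 2454 to 2582 and 1608 to 1813 in KO libraries; MCM7 was its most abundant gene in every library. Without Scr13 untreated replicate 1 the count in Scr cells was again 10 of 12. Between genotypes, MCM2 was lower in KO libraries untreated (-0.75, adjusted p = 7.18e-07), and MCM2 (-0.93), MCM6 (-0.51), MCM3 (-0.38) and FEN1 (-0.28) after doxorubicin. The part of the cell cycle distribution in the members' changes was not tested.

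Regulators of the G1/S transition changed in both directions. CDKN1A, the p53-induced CDK inhibitor p21, rose by 2.57 in Scr (SE 0.129, adjusted p = 5.68e-10) and by 2.43 in KO cells (SE 0.0825, adjusted p = 1.63e-16) on the log2 scale, and was higher in KO than in Scr cells both untreated (1.27, SE 0.135, adjusted p = 3.36e-06) and treated (1.13, SE 0.0755, adjusted p = 1.98e-09). E2F1, an activator of S phase genes, fell (-0.52 in Scr, adjusted p = 0.00697, and -0.60 in KO, adjusted p = 6.04e-05), and so did E2F2 (-0.47 and -0.72), whereas the repressor E2F7 rose (0.39 and 0.64). CCNE2, a G1/S cyclin, had the largest fall in Scr cells (-0.82). In total 3 of 11 fell and 2 rose in Scr, and 4 fell and 2 rose in KO cells. E2F7 did not pass in Scr cells without Scr13 untreated replicate 1 (0.32, adjusted p = 0.142), which left 1 that rose. E2F2 was the regulator lower in KO than in Scr cells after doxorubicin (-0.41, adjusted p = 0.0271), while E2F1 did not pass there (-0.29, adjusted p = 0.16).

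The pathways that feed the members changed in part. In the folate cycle MTHFD1, which interconverts folate one-carbon units, fell in both genotypes (-0.41 and -0.41), and the folate carrier SLC19A1 in KO cells (-0.32). Of 12 genes of de novo purine synthesis, 4 fell and 1 rose in Scr, and 5 fell in KO cells. Those that fell in Scr cells were PPAT (-0.39), PFAS (-0.38), PRPS1 (-0.30) and PAICS (-0.25). In KO cells they were PRPS2 (-0.49), PFAS (-0.45), PRPS1 (-0.42), PAICS (-0.39) and PPAT (-0.32). PRPS1 and PRPS2 make the ribose donor of the pathway, PPAT catalyses its first committed step, and PFAS and PAICS act in later steps before inosine monophosphate. IMPDH2, of guanine nucleotide synthesis, was the gene that rose (0.24). Of 5 genes of de novo pyrimidine synthesis, CTPS1 fell in Scr (-0.46, adjusted p = 0.00226) and CAD in KO cells (-0.28, adjusted p = 0.0166).

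Salvage genes showed another picture. In Scr cells 1 of 10 genes of base and nucleoside salvage fell, the uridine-cytidine kinase UCK2 (-0.29, adjusted p = 0.0485). In KO cells UCK2 fell (-0.34, adjusted p = 0.00361) and 4 genes rose, among them the uridine phosphorylase UPP1 (0.72), adenosine deaminase ADA (0.67) and the nucleoside transporter SLC29A2 (0.54). No interaction in this list passed the threshold. Among 14 other kinases and deoxynucleotide handling genes, 0 passed in Scr, and NT5C, a deoxynucleotidase, rose (0.37) and NUDT1, which hydrolyses oxidized purine nucleotides, fell (-0.36) in KO cells. Without Scr13 untreated replicate 1 the counts in Scr cells were 2 lower and 0 higher in purine synthesis, 1 lower in pyrimidine synthesis and 0 in salvage. The genes that no longer passed were PRPS1 (adjusted p = 0.0896), PAICS (0.0514), IMPDH2 (0.0542) and UCK2 (0.0637).

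Between genotypes few of these genes differed. Untreated, TYMP, which degrades thymidine, was lower in KO libraries (-0.97, SE 0.275, adjusted p = 0.045) and the purine nucleoside phosphorylase PNP was higher (0.46, SE 0.124, adjusted p = 0.0317). TYMP did not pass without Scr13 untreated replicate 1 (-0.99, adjusted p = 0.0984), and PNP did (0.53, adjusted p = 0.0305). After doxorubicin SHMT2, the mitochondrial serine hydroxymethyltransferase (-0.28, adjusted p = 0.0327), and CAD, which starts pyrimidine synthesis (-0.28, adjusted p = 0.0164), were lower.

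**Figure D4:**
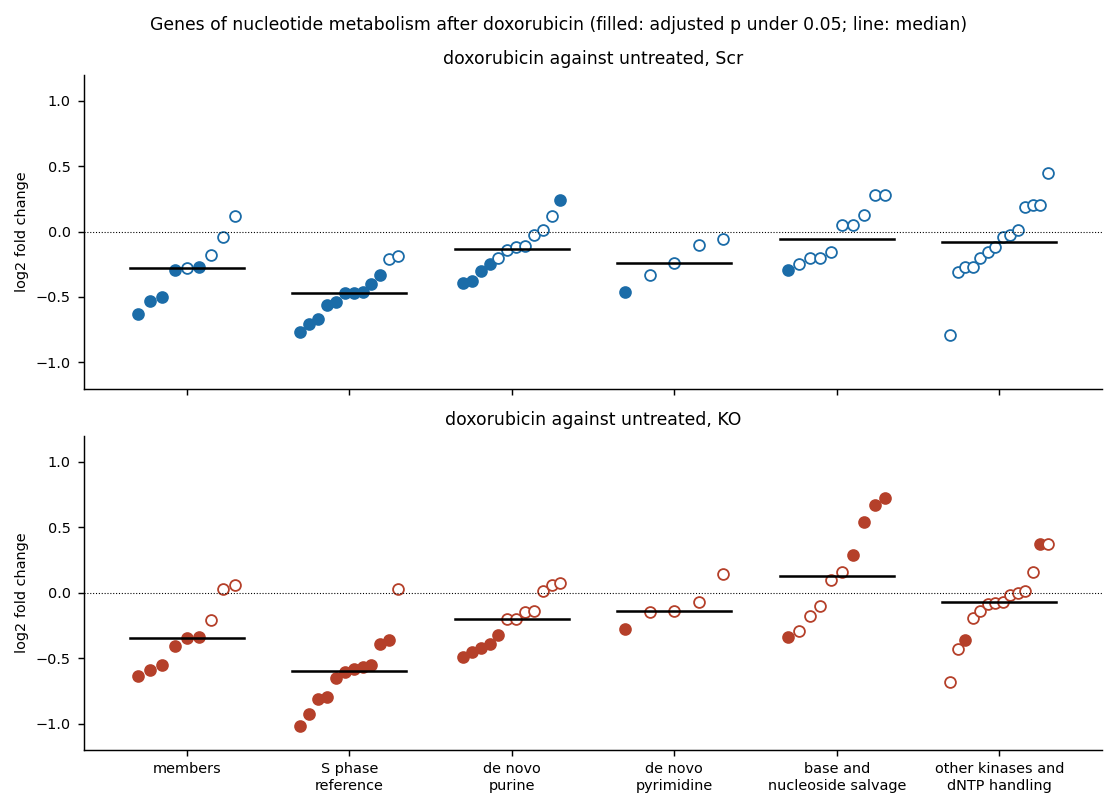
Log2 fold change after doxorubicin (y axis) of every tested gene in 6 lists (x axis), in Scr cells (top) and KO cells (bottom); filled points passed an adjusted p of 0.05 in limma and lines mark list medians. The medians of the members (-0.28 and -0.35) and of the S phase genes (-0.47 and -0.60) lay below those of the other lists. Without Scr13 untreated replicate 1, the Scr median of the members (-0.27) was not below that of de novo pyrimidine synthesis (-0.28).

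Across the 16 libraries 7 members varied together, with r of 0.43 to 0.89 between pairs, and TYMS and SAMHD1 did not follow them, given here as a description over libraries that share treatment and clone. Pearson's r of log2 levels was 0.89 between TK1 and DUT, 0.88 between DUT and DCTPP1, 0.85 between TK1 and DTYMK and 0.82 between RRM1 and RRM2. TYMS had r between -0.37 and 0.12 with the other members, and SAMHD1 between -0.41 and 0.27. Among 10012 genes with a mean of at least 10 CPM, those most alike to RRM2 were DHX9 (0.96), BAZ1B (0.94) and BCLAF1 (0.94). For TYMS they were MYL6B (0.78), CRMP1 (0.75) and TMEM51 (0.74), and for SAMHD1 MARCHF7 (0.85), ARHGAP5 (0.83) and TBC1D4 (0.82).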

How the data were processed

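Poly(A) RNA libraries were made with a directional kit. Per the submitters' processing notes, reads were aligned with HISAT2 2.1.0 to GRCh38 and counted with HTSeq, and the strand setting and annotation release were not given in the sources used here. The authors normalized the signal they deposited with edgeR, as read counts relative to an adjusted library size, called normalized CPM here, in 1 table per treatment. Every deposited value was a whole multiple of its column's step (tolerance 0.01 reads), so that 100% of values gave whole reads. The authors' fold changes, p-values and q-values were not used. The geometric mean of the authors' factors was 1.0121 untreated and 0.9916 after doxorubicin.

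Genes that reached 1 normalized CPM in 4 or more libraries were tested with limma 3.58.1 (R 4.3.3) on log2(normalized CPM + 1), with an abundance trend and Benjamini-Hochberg adjustment over all genes tested at 0.05. Fold changes are on this scale and understate those of low genes. An edgeR test on counts is the study's method, and since the values are normalized, edgeR 4.0.16 and DESeq2 1.42.0 ran on recovered reads as alternatives. KO and Scr were compared within a table. Doxorubicin and untreated libraries, and the interaction, were compared on recovered reads scaled jointly over 16 libraries. The same clones were untreated and treated, and a fit with clone as a block called 5 and 6 members, as did the fit without it. Both doxorubicin contrasts share their libraries with the genotype contrasts. Replicates of a pair differed by more than sampling noise (chi-square per gene 7.79 to 16.9). The tests were run on simulated data in which libraries were drawn independently, with no difference between clones. That check therefore did not cover the design of 2 clones per genotype.

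The members and gene lists were chosen with earlier results of these data known. Named genes are all members, up to 3 genes past the threshold with the largest change per list and comparison, RRM2B, E2F1, CDKN1A, genes overlapping a member, and the 3 genes most correlated with RRM2, TYMS and SAMHD1. Some genes of this rule are not reported here. The other genes named were chosen after their values were seen. Positions are from GENCODE 29, and promoter windows from RefSeq on GRCh38.p14, with all 9 members matched. CDA and PRRX1 were not analysed here.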

Additional observations from a re-analysis of the deposited data

Results flagged for a closer look

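Among 12 genes (the 9 members, RRM2B, E2F1 and CDKN1A), 48 groups of 4 libraries were examined for a library far from the other 3, and 2 were found; chance gives about 1 in 20. SAMHD1 was 24.44 normalized CPM in KO28 untreated replicate 2, compared with 40.55 to 41.2 in the other 3 untreated KO libraries. Without that library the log2 difference between untreated KO and Scr cells rose from 0.21 to 0.39 (adjusted p = 0.0592). TK1 was 55.07 normalized CPM in KO28 doxorubicin replicate 1, compared with 61.64 to 62.92 in the other 3 treated KO libraries, and the call of TK1 between genotypes was lost without it (adjusted p = 0.0559).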

How the results depend on the processing

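With 2 clones per genotype and 4 libraries per group, exact tests of a single gene could not go below p = 0.0286, and the 95% intervals of the members' log2 changes in limma ranged from that of TYMS between untreated genotypes (-0.14 to 0.13) to that of SAMHD1 in the interaction (-0.34 to 0.47). RRM2, DUT and RRM2B kept direction and threshold after doxorubicin in both genotypes in all 19 alternatives each, and TK1 and DCTPP1 did so in KO cells. The causes of the shifts below were not tested.

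Of the members, 1 was called between genotypes after doxorubicin, 2 with DESeq2, 2 with library size alone, 2 with the replicate number as a block, 2 with clone as a random block, between 0 and 2 without 1 library, and 0 without clone KO11, Scr16 or KO28. In Scr cells 5 were called after doxorubicin, 3 without a filter, between 3 and 5 without 1 library, and 2 without clone Scr13 or Scr16. Of all genes, 695 were called between untreated genotypes, 368 without a filter, 362 without Scr13 and 364 without Scr16. After doxorubicin 1266 were called, 574 without KO11 and 629 without KO28. The response in Scr cells had 1636 calls, 834 without a filter, 1059 to 1677 without 1 library, 270 without Scr13 and 730 without Scr16. The response in KO cells had 2540 calls and 999 without KO11. The interaction had 3 calls, 5 without a filter, 31 with DESeq2, 1 to 6 without 1 library, 7 with the replicate block, 1 on clone means, 5 with clone as a fixed block, 0 without KO11 or Scr16, 5 without Scr13 and 1 without KO28.

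The correlation of deviations over 28 pairs of same-numbered libraries was -0.10 to 0.12 with a median of 0.03, and 1 exceeded 0.1. These low correlations do not show that replicate number had no effect on the members. After doxorubicin, replicate 1 had a lower summed level of the members than replicate 2 in 4 of 4 clones. The block added DUT (adjusted p = 0.0498) to the members called between genotypes after doxorubicin and DCK (0.0444) to those called in Scr cells.

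Values that passed in no setting changed sign. Between untreated genotypes RRM1 was 0.00 with edgeR and 0.01 with DESeq2, and TYMS 0.00 with DESeq2. Without KO11, TK1 was 0.01, DTYMK 0.02, DCTPP1 0.04 and RRM2B -0.01. Without Scr13 RRM1 was 0.00, and without Scr16 RRM2 was 0.01 and DCTPP1 0.03. Without KO28, RRM1 was 0.09, RRM2 0.02 and TYMS 0.01, and after doxorubicin DCK was 0.02. Without 1 library the ranges were -0.04 to 0.07 for RRM1, -0.04 to 0.03 for TYMS and -0.09 to 0.01 for DCTPP1. The doxorubicin response of SAMHD1 was 0.04 in Scr without Scr13 and -0.12 to 0.03 without 1 library. In KO cells it was -0.02 with edgeR, -0.02 with DESeq2, -0.01 with library size alone, -0.12 without KO28 and -0.15 to 0.09 without 1 library. Its interaction was -0.02 without Scr13, -0.08 without KO28 and -0.11 to 0.15 without 1 library, where TYMS was -0.10 to 0.01 and DUT -0.07 to 0.02.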

Other observations

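Mesenchymal markers differed between the genotypes by more than the members did. In the libraries labelled TRPM2 KO, the collagen gene COL3A1 was higher by a log2 fold change of 2.17 untreated (SE 0.423, adjusted p = 0.00279) and 2.88 after doxorubicin (SE 0.392, adjusted p = 2.83e-05). YAP1, a transcriptional coactivator, was higher by 1.91 and 2.18, fibronectin (FN1) by 1.55 and 2.14 and the intermediate filament gene VIM by 1.10 and 1.23, whereas the transcription factor TWIST1 was lower (-0.53 and -0.64). Without Scr13 untreated replicate 1, 6 of 9 were higher untreated, with a median of 1.38 compared with 1.10. After doxorubicin CD44 rose in KO cells (1.66, SE 0.23, adjusted p = 1.08e-05) and COL1A2 fell (-0.98, SE 0.295, adjusted p = 0.0228). COL1A2 was close to the floor, with 21 to 55 reads in untreated KO libraries and 2 to 18 in treated ones. In Scr cells CD44 was at 0.94 (SE 0.369, adjusted p = 0.111), and at 1.27 (adjusted p = 0.0366) without Scr13 untreated replicate 1. TWIST1 rose in Scr cells (0.22, adjusted p = 0.0364) and did not pass without that library (0.21, adjusted p = 0.0982). In the interaction 0 of 9 mesenchymal genes passed in limma, and 0 had an unadjusted p under 0.05.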
